A study of Homo sapiens with 6 samples.

Results

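The genes described here encode collagen alpha chains, and their RNA was measured in U2OS, a human osteosarcoma cell line, by RNA sequencing of 6 libraries. Members were the rows of the gene count table whose symbol is COL, a number, A and a number; 44 of 50550 rows met this rule. The 6 numbered copies, which were all of COL11A2, and the 6 antisense rows were left out. The labels give 3 libraries named Lv_LINC00673, described as knockdown derivatives of U2OS for the long noncoding RNA LINC00673, and 3 libraries named Lv_NC. They do not spell out NC or Lv, and the series' design speaks of wild-type cells as the other arm. The extract protocol gives total RNA isolated with TRIzol and a TruSeq RNA kit. Whether replicates were grown apart is not stated, so p-values speak of differences between libraries that may reflect technical spread alone.

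Collagens are extracellular matrix proteins in which 3 alpha chains wind into a triple helix. The chains are hydroxylated and folded in the endoplasmic reticulum, exported, in part trimmed outside the cell, and crosslinked. Fibrillar collagens form the banded fibrils of bone, skin and cartilage. Basement membrane collagen (type IV) forms sheets, network collagens (types VIII and X) form lattices, type VI forms beaded filaments, and the FACIT collagens sit on the surface of fibrils or at tissue junctions. Type I, made of COL1A1 and COL1A2 chains, is the main protein of bone matrix, the tissue from which osteosarcoma arises.

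The total counts per library were between 61815841 and 71237493 in Lv_LINC00673 and between 76814723 and 87227980 in Lv_NC. LINC00673 itself had 6.39 ± 0.159 CPM (counts scaled to library size, with factors from the trimmed mean of M-values, TMM) in Lv_LINC00673 and 8.50 ± 1.24 CPM in Lv_NC (SD, n = 3 each). Its log2 fold change was -0.41, with a 95% interval of -0.78 to -0.04, and the quasi-likelihood test of edgeR gave it an adjusted p of 0.0924, so its drop did not pass the threshold of 0.05 used throughout. DESeq2 gave an adjusted p of 0.0429. In that edgeR test 5883 of 21933 tested genes passed the threshold, 3145 higher and 2738 lower in Lv_LINC00673, and without each library in turn the number was between 2716 (Lv_LINC00673 replicate 2 left out) and 6490 (Lv_LINC00673 replicate 1 left out). Fold changes in these libraries also moved with transcript GC content and length, so values fitted with an offset for both, set per library and called the GC and length offset, are given beside the results whose call changes or whose called value moves by over 1.5 times. In that fit 5511 of 16894 genes, or 32.6%, passed.

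The 6 type IV collagen genes lie in 3 head-to-head pairs, and the intervals between the start sites are shown for COL4A1 with COL4A2 and for COL4A4 with COL4A3 because the RNAs of the first pair moved together. The windows upstream of COL6A2, COL6A3 and COL12A1 are shown because 2 chains of the same type VI protein, COL6A2 and COL6A3, did not share a call, and because COL12A1 had the largest rise among the chains above 1 CPM in both groups. All are RefSeq sequence of GRCh38.p14, 5′ to 3′. Capitals mark 3 motifs searched on both strands, the CCAAT box (CCAAT or ATTGG), the GC box (GGGCGG or CCGCCC) and the TATA box (TATAAA or TTTATA), and no marked motif overlaps another in these windows.
COL4A1/COL4A2 shared promoter: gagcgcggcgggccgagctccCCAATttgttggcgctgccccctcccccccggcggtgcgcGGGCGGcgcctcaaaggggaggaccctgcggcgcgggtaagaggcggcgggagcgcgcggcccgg
COL4A4/COL4A3 shared promoter: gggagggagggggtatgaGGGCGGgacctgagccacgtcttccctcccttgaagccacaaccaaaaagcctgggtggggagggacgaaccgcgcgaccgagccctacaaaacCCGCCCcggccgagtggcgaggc
COL6A2 promoter: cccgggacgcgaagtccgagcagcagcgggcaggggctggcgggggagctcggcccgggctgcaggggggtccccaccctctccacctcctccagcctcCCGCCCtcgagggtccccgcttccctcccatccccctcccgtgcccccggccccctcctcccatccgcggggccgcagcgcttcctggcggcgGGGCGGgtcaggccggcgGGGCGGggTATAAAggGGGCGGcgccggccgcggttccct
COL6A3 promoter: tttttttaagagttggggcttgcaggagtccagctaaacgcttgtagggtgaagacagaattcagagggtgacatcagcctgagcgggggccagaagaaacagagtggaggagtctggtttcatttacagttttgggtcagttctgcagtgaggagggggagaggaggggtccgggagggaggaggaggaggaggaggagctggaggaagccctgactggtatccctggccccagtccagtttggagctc
COL12A1 promoter: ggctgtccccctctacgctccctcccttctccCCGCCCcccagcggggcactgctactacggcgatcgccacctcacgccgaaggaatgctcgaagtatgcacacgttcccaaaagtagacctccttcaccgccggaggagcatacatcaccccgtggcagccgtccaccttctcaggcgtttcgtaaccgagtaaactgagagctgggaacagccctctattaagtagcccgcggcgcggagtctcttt

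The 126 bases of the COL4A1/COL4A2 interval (chr13:110307158-110307283, plus strand, which is the strand of COL4A2) were 80.2% G or C and held 1 CCAAT box and 1 GC box. Among 35116 RefSeq promoters cut to the same length, 21.1% held a CCAAT box and 34.6% a GC box. The 135 bases between COL4A4 and COL4A3 (chr2:227164489-227164623, plus strand, that of COL4A3) were 68.1% G or C and held 2 GC boxes, as 16.9% of promoters of that length did. The interval between COL4A6 and COL4A5 on the X chromosome is longer, 379 bases, and is not printed. The 250 bases before the COL6A2 start (chr21:46097862-46098111, plus strand) were 79.6% G or C with 28 CpG dinucleotides, 4 GC boxes and 1 TATA box. The 250 bases before the COL6A3 start (chr2:237414165-237414414, minus strand) were 56.0% G or C with 3 CpG dinucleotides and none of these motifs. The window before COL12A1 (chr6:75206054-75206303, minus strand) was 61.2% G or C with 21 CpG dinucleotides and 1 GC box. Among all promoters of 250 bases, the median G or C share was 58.0%, and a CCAAT box was present in 32.0%, a GC box in 42.6% and a TATA box in 10.7%. These matches describe the letters in the windows and say nothing of which factors bind there.

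U2OS cells carried RNA of most collagen types, with type IV the most abundant per length. Of the 44 chains, 35 passed the low-count filter and 26 averaged at least 1 CPM. Collagen rows took 0.361 ± 0.0173% of all counts in Lv_LINC00673 and 0.383 ± 0.0218% in Lv_NC (SD, n = 3 each), and the 2 groups overlapped. COL4A2 had the highest deposited FPKM (fragments scaled to transcript length and library depth) in every library, 224 ± 15.0 in Lv_LINC00673 and 281 ± 17.1 in Lv_NC. Next came COL6A2 with 117 ± 12.0 FPKM in Lv_LINC00673 and 113 ± 6.91 in Lv_NC. COL4A1, COL6A1, COL1A1, COL13A1, COL5A1 and COL27A1 had group means between 18.3 and 55.7 FPKM.

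The fibrillar pair of bone was present almost as COL1A1 alone. COL1A1 had 49403 counts in the 3 Lv_LINC00673 libraries together and 49729 in the 3 Lv_NC libraries, whereas COL1A2, its usual partner, had 13 and 0. All 13 COL1A2 counts came from Lv_LINC00673 replicate 1. COL2A1, the fibrillar chain of cartilage, had 4 counts in Lv_LINC00673 and 3 in Lv_NC, and COL23A1, a transmembrane chain, had 0 in all 6 libraries. The other chains below the filter had few counts, with Lv_LINC00673 given first: COL24A1 9 and 4, COL6A5 5 and 0, COL6A6 19 and 8, COL9A1 0 and 4, COL21A1 10 and 13, and COL25A1 27 and 5. A count of 0 allows up to 3 counts in a group, and no fold change was taken for these 9 chains.

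**Figure D1:**
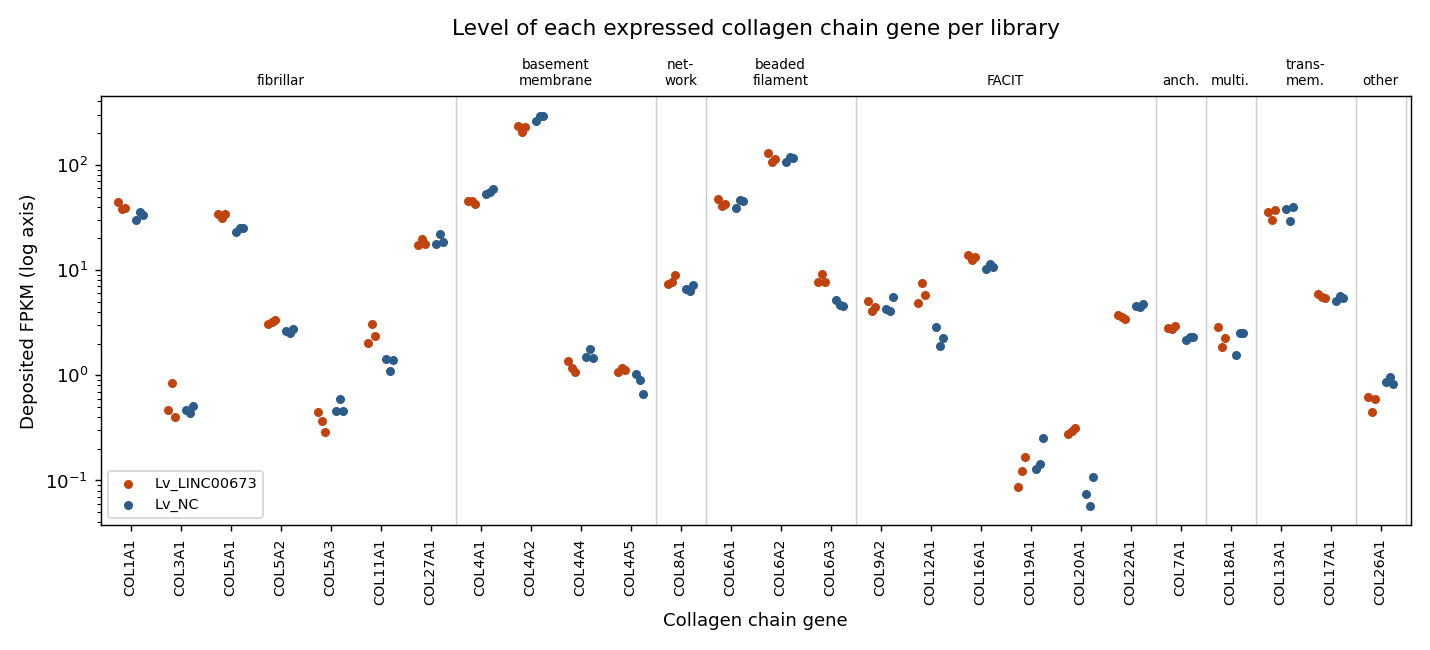
Deposited FPKM on a log axis of the 26 collagen chain genes with at least 1 CPM on average, grouped by class, with 1 point per library and Lv_LINC00673 left of Lv_NC for each gene. COL4A2 is the highest chain in all 6 libraries. COL12A1 and COL6A3 are among several chains whose FPKM groups are separated with Lv_LINC00673 higher, and others are separated with it lower.

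Among the 35 tested chains, 10 passed the threshold, which is 28.6% against 26.8% of all tested genes. Of these, 6 were higher in Lv_LINC00673 (COL6A3, COL8A2, COL10A1, COL11A1, COL12A1 and COL20A1) and 4 were lower (COL4A1, COL4A2, COL22A1 and COL26A1), against 14.3% of all genes higher and 12.5% lower. Among the higher chains COL10A1 passed the low-count filter only through its Lv_LINC00673 counts. The share of calls among collagen chains was thus near the background, and so was their median log2 fold change, 0.08 against 0.05 over all tested genes. The CPM values of the groups did not overlap for 17 of 35 chains, or 48.6%, against 45.1% of all tested genes. Scaled by library totals alone, which raised the median of all genes by 0.17 on the log2 scale, the calls were 9 higher and 3 lower among collagens and 4051 higher and 1224 lower among all genes. The count of higher chains was 3 without Lv_LINC00673 replicate 2 or replicate 3, and the count of lower chains was 2 without Lv_LINC00673 replicate 3 or Lv_NC replicate 3. In bulk RNA a smaller number of cells with a transcript and a smaller amount per cell cannot be told apart.

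**Figure D2:**
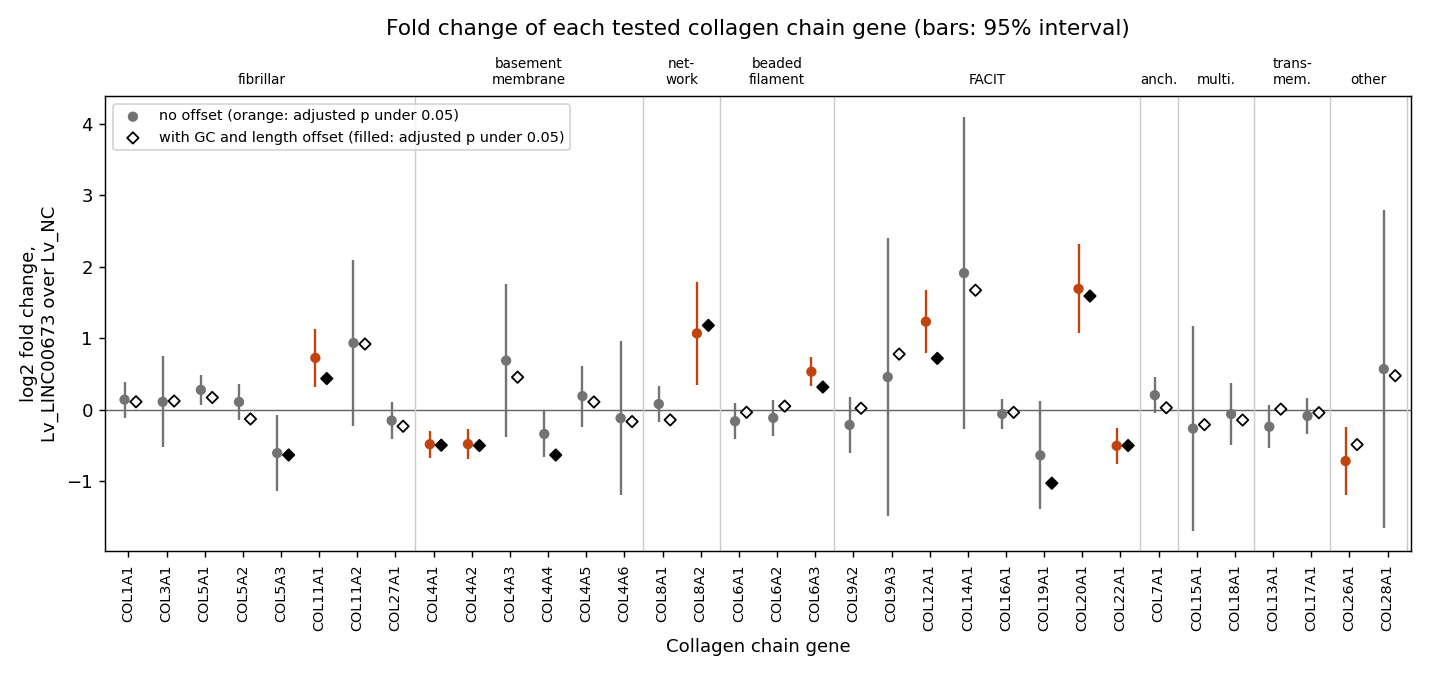
Log2 fold change of Lv_LINC00673 over Lv_NC for 34 tested collagen chains with 95% intervals (circles) and the same value with a GC and length offset (diamonds). COL10A1 is left out because its counts in Lv_NC were all 0. COL4A1 and COL4A2 sit together near -0.5 in both fits, and COL12A1 and COL20A1 are the highest called chains in the fit without the offset, whereas with it COL20A1 and COL8A2 are.

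The major basement membrane pair was lower in Lv_LINC00673. COL4A1 and COL4A2 assemble into the type IV heterotrimer found in nearly all basement membranes. COL4A2 (chromosome 13, 110307284 to 110513209) had 1539.8, 1283 and 1446 CPM in Lv_LINC00673, against 1828, 2087 and 2054 CPM in Lv_NC. The groups did not overlap, and COL4A2 fell by 0.48 on the log2 scale (SE 0.09, 95% interval -0.70 to -0.27, adjusted p = 0.00895, edgeR), to 71.5% of Lv_NC. COL4A1 (chromosome 13, 110148963 to 110307157) had 300.3, 286 and 275 CPM in Lv_LINC00673, against 375, 408 and 423 CPM in Lv_NC. Every Lv_LINC00673 library was below every Lv_NC library, and COL4A1 fell by 0.49 (SE 0.08, 95% interval -0.67 to -0.30, adjusted p = 0.00646), to 71.4% of Lv_NC. Both calls held without each library in turn and with the GC and length offset, where the log2 fold change was -0.50 for both genes (adjusted p = 0.000542 for each). Neither held in limma on log2(FPKM + 0.1), nor with a block for replicate number in the fit without the offset. The COL4A2 call was also lost in limma on log2(FPKM + 1) without a low-value filter. Antisense transcripts overlapping COL4A2 cannot be separated from it without strand, but the largest, COL4A2-AS1, had 20 to 46 counts per library.

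The other type IV chains were far less abundant. COL4A4, a chain of the mature kidney glomerular membrane, had 8.61, 8.41 and 7.85 CPM in Lv_LINC00673, against 9.77, 11.2 and 10.5 CPM in Lv_NC. Its groups did not overlap, but the log2 fold change of -0.34 had an adjusted p of 0.104, and with the offset it was -0.64 with an adjusted p of 0.00551. COL4A4 overlaps RHBDD1, which had 14.3 ± 3.77 CPM in Lv_LINC00673 and 10.4 ± 1.53 CPM in Lv_NC (adjusted p = 0.157), and their reads cannot be told apart there without strand. COL4A3, across the shared interval from COL4A4, averaged 0.593 ± 0.249 CPM in Lv_LINC00673 and 0.367 ± 0.152 CPM in Lv_NC (log2 fold change 0.68, adjusted p = 0.316). COL4A5 averaged 7.03 ± 0.357 CPM in Lv_LINC00673 and 6.17 ± 1.28 CPM in Lv_NC (0.19, adjusted p = 0.501). COL4A6 averaged 0.689 ± 0.398 CPM in Lv_LINC00673 and 0.752 ± 0.308 CPM in Lv_NC (-0.12, adjusted p = 0.875). In CPM COL4A3, COL4A5 and COL4A6 overlapped between the groups, whereas the FPKM of COL4A5 was higher in every Lv_LINC00673 library. In all, 2 of 6 basement membrane chains passed the test, both lower, or 33.3% against 26.8% of all tested genes.

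Partner chains of the same protein were set against each other per length within each library. Such a comparison does not depend on how libraries are scaled, but it can depend on the unit. The COL4A2 to COL4A1 ratio of FPKM was 5.21, 4.56 and 5.43 in Lv_LINC00673 and 4.95, 5.25 and 4.92 in Lv_NC. The means were 5.07 ± 0.452 and 5.04 ± 0.181 (SD, n = 3 each), and a two-sided exact permutation test gave p = 1. The COL6A1 to COL6A3 ratio was 6.11, 4.40 and 5.46 in Lv_LINC00673, against 7.62, 9.83 and 9.90 in Lv_NC, with no overlap. The exact permutation p was 0.1, the smallest that 3 against 3 libraries allow, and 0.4 after adjustment over the 4 pairs compared. The log2 difference of the COL6A3 to COL6A1 ratio was 0.78 in FPKM and 0.69 in CPM, where the groups did not overlap either. These chains differ in GC content, 53.2% for COL6A3 and 63.5% for COL6A1, and the difference between their log2 fold changes was 0.69 without the offset and 0.35 with it. The COL6A2 to COL6A1 ratio was 2.68 ± 0.0719 in Lv_LINC00673 and 2.61 ± 0.0709 in Lv_NC (exact permutation p = 0.3, n = 3 each). The COL5A1 to COL5A2 ratio was 10.4 ± 0.738 in Lv_LINC00673 and 9.21 ± 0.595 in Lv_NC (exact permutation p = 0.2, n = 3 each). Both adjusted p-values were 0.4. The ratio of COL1A1 to COL1A2 was not taken because COL1A2 did not pass the filter.

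**Figure D3:**
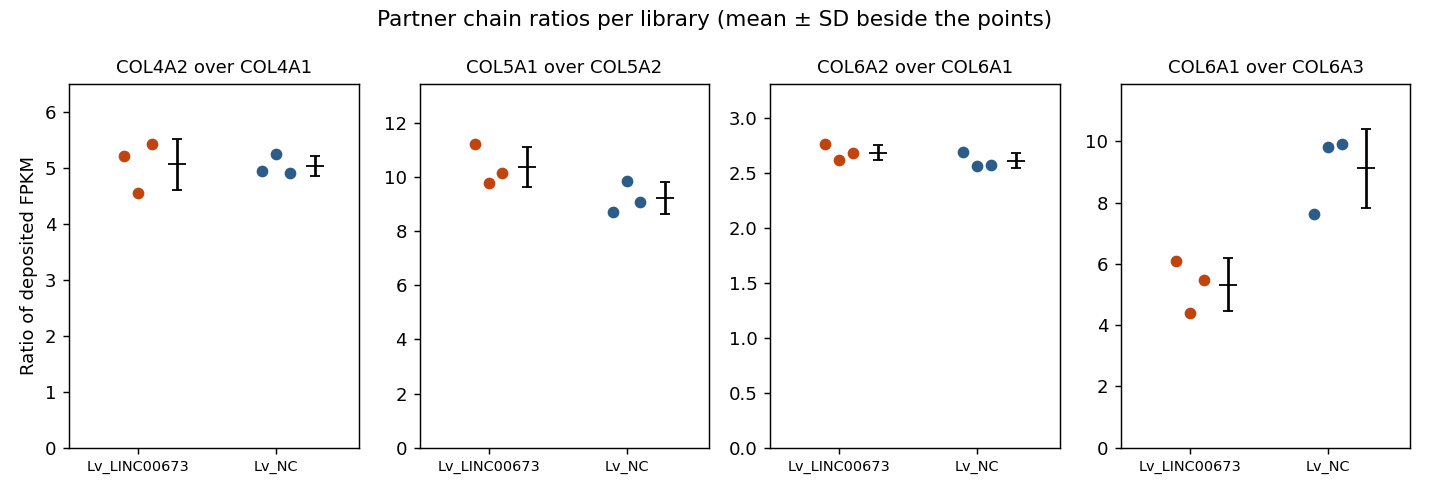
Ratio of deposited FPKM between partner chains in each library, with mean ± SD beside the points and axes starting at 0. The COL4A2 to COL4A1 ratio sits near 5 in both groups, and the COL6A1 to COL6A3 ratio is lower in all 3 Lv_LINC00673 libraries.

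Type VI collagen, a filament-forming protein of the matrix around cells, differed between its chains. COL6A3, the longest of its main chains (chromosome 2, 237324018 to 237414164), had 78.6, 82.7 and 75.9 CPM in Lv_LINC00673, against 57.5, 54.9 and 51.9 CPM in Lv_NC. The groups were separate, and COL6A3 rose with a log2 fold change of 0.53 (SE 0.09, 95% interval 0.33 to 0.73, adjusted p = 0.00603, edgeR). With the offset it was 0.32 (adjusted p = 0.00574), and the call held without each library in turn. It was lost with a block for replicate number in the fit without the offset. COL6A1 averaged 179 ± 18.8 CPM in Lv_LINC00673 and 201 ± 19.8 CPM in Lv_NC (log2 fold change -0.16, adjusted p = 0.303). COL6A2 averaged 383 ± 50.2 CPM in Lv_LINC00673 and 416 ± 30.7 CPM in Lv_NC (-0.12, adjusted p = 0.472). Both genes, which lie on chromosome 21, overlapped between the groups, and the sign of each value turned when libraries were scaled by their totals.

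Among the fibrillar chains 1 of 8 tested passed, or 12.5% against 26.8% of all tested genes, and their median log2 fold change was 0.12 against 0.05. COL11A1, a minor fibrillar chain that limits the width of cartilage fibrils, had 14.9, 21.4 and 16.6 CPM in Lv_LINC00673, against 11.3, 9.15 and 11.5 CPM in Lv_NC. It rose in Lv_LINC00673, with no overlap, by a log2 fold change of 0.72 (SE 0.18, 95% interval 0.32 to 1.13, adjusted p = 0.0192, edgeR), or 0.43 with the offset (adjusted p = 0.0263). The call was lost in 4 of 6 fits without a library, those without replicate 2 or 3 of either group, and in limma on log2(FPKM + 1) without a low-value filter. COL1A1 averaged 236 ± 27.3 CPM in Lv_LINC00673 and 215 ± 20.5 CPM in Lv_NC, with a log2 fold change of 0.14, an interval of -0.11 to 0.39 and an adjusted p of 0.393.

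Type V collagen nucleates fibrils, and its 3 chains gave mixed values. COL5A1 averaged 272 ± 19.3 CPM in Lv_LINC00673 and 225 ± 15.1 CPM in Lv_NC without overlap, but its log2 fold change of 0.28 had an adjusted p of 0.0539. COL5A2 averaged 21.4 ± 0.769 CPM in Lv_LINC00673 and 19.9 ± 0.742 CPM in Lv_NC, also without overlap (0.11, adjusted p = 0.524). COL5A3 averaged 2.27 ± 0.543 CPM in Lv_LINC00673 and 3.46 ± 0.575 CPM in Lv_NC, without overlap, with a log2 fold change of -0.61 (adjusted p = 0.0885) and of -0.64 with the offset (adjusted p = 0.0361). The type V chains thus did not pass in the edgeR fit over all 21933 tested genes. COL5A1 was called higher without the offset on the 16894 genes with GC content and length (adjusted p = 0.0426, edgeR). It was also called under limma-voom, library totals, a stricter low-count filter and every limma fit on FPKM. DESeq2, RLE and upper-quartile factors, no filter, the replicate block and the offset did not call it, nor did any fit without a library. COL5A2 was called only in limma on log2(FPKM + 1) without a low-value filter. COL3A1, the fibrillar chain of elastic tissues, averaged 3.07 ± 1.24 CPM in Lv_LINC00673 and 2.85 ± 0.181 CPM in Lv_NC (0.11, adjusted p = 0.808). COL27A1, a fibrillar chain of developing cartilage, averaged 114 ± 6.58 CPM in Lv_LINC00673 and 127 ± 17.3 CPM in Lv_NC (-0.15, adjusted p = 0.354). COL11A2 had 69 counts in Lv_LINC00673 and 40 in Lv_NC (adjusted p = 0.21), which are uncertain because 6 further rows carry copies of the gene with 7 to 25 counts per library each.

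The FACIT class held both the largest called rises among chains with counts in every library and a called drop, but with the offset COL8A2 of the network class lay above COL12A1. COL12A1, whose long protein binds fibrils in tendon, ligament and periosteum (chromosome 6, 75084326 to 75206053), had 52.3, 76.6 and 59.8 CPM in Lv_LINC00673, against 33.1, 20.9 and 26.4 CPM in Lv_NC. All 3 Lv_LINC00673 libraries lay above the Lv_NC libraries, and COL12A1 rose with a log2 fold change of 1.23 (SE 0.19, 95% interval 0.79 to 1.67, adjusted p = 0.00534, edgeR). With the offset the value was 0.72 (adjusted p = 0.00188) and without each library in turn it ranged from 1.05 to 1.40. COL20A1 (chromosome 20, 63293186 to 63334806), a low-level member of the class, had 166, 153 and 162 counts in Lv_LINC00673, against 51, 43 and 70 counts in Lv_NC. Its groups were separate, and it rose with a log2 fold change of 1.69 (SE 0.27, 95% interval 1.07 to 2.31, adjusted p = 0.00562), or 1.59 with the offset (adjusted p = 0.0036).

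COL22A1, found at the junction of muscle and tendon, had 24.4, 21.9 and 21.2 CPM in Lv_LINC00673, against 31.1, 31.9 and 32.9 CPM in Lv_NC. It fell in Lv_LINC00673, with no overlap, by 0.51 on the log2 scale (SE 0.11, 95% interval -0.76 to -0.26, adjusted p = 0.0123, edgeR), and the call was lost without Lv_LINC00673 replicate 3 or Lv_NC replicate 3 and in limma on log2(FPKM + 0.1). COL16A1, a chain of skin and cartilage matrix, averaged 60.8 ± 3.01 CPM in Lv_LINC00673 and 63.5 ± 4.33 CPM in Lv_NC (-0.06, adjusted p = 0.662), a value whose sign turned to 0.10 under library totals. COL9A2, part of the type IX collagen on cartilage fibrils, averaged 13.2 ± 1.76 CPM in Lv_LINC00673 and 15.3 ± 2.69 CPM in Lv_NC (-0.22, adjusted p = 0.392). Both COL16A1 and COL9A2 overlapped between the groups in CPM, whereas in FPKM COL16A1 did not. COL19A1 averaged 1.44 ± 0.429 CPM in Lv_LINC00673 and 2.25 ± 0.853 CPM in Lv_NC, with a log2 fold change of -0.64 (adjusted p = 0.187) and of -1.03 with the offset (adjusted p = 0.0373). COL14A1 had 46 counts in Lv_LINC00673 and 13 in Lv_NC (adjusted p = 0.175), and COL9A3, whose end overlaps the more abundant TCFL5 gene, had 41 in Lv_LINC00673 and 34 in Lv_NC (adjusted p = 0.732). In all, 3 of 8 tested FACIT chains passed, 2 higher and 1 lower, or 37.5% against 26.8% of all tested genes.

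The network class was led by COL8A1, a chain of the membranes under endothelium. COL8A1 averaged 43.3 ± 4.22 CPM in Lv_LINC00673 and 41.0 ± 2.32 CPM in Lv_NC (log2 fold change 0.08, adjusted p = 0.639). The COL8A1 groups overlapped in CPM but not in FPKM. Its partner chain COL8A2 had 54, 60 and 56 counts in Lv_LINC00673, against 32, 28 and 30 counts in Lv_NC. COL8A2 rose with a log2 fold change of 1.07 (95% interval 0.34 to 1.79, adjusted p = 0.0382, edgeR), without overlap, but the call was lost whichever of the 6 libraries was left out. COL10A1, the collagen of hypertrophic cartilage, had 10, 20 and 20 counts in Lv_LINC00673, against 0, 0 and 0 in Lv_NC. COL10A1 passed the low-count filter only through its Lv_LINC00673 counts, so its call is no separate support for a rise. Against a floor of 3 counts over the Lv_NC group it was 18.5-fold higher, a value that takes its 50 Lv_LINC00673 counts as exact. The edgeR test of the counts, which does not use that floor, gave an adjusted p of 0.0121. That call was lost without Lv_LINC00673 replicate 2 or 3. The COL10A1 counts are uncertain, because the gene lies within NT5DC1, which had 12.0 ± 2.53 CPM in Lv_LINC00673 and 8.18 ± 1.24 CPM in Lv_NC (log2 fold change 0.55, adjusted p = 0.0713), and the counting is not stated to use strand.

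Of the remaining chains only COL26A1 passed the test. COL26A1 had 2.00, 1.48 and 1.95 CPM in Lv_LINC00673, against 2.79, 3.33 and 2.83 CPM in Lv_NC, and fell by 0.72 on the log2 scale (95% interval -1.20 to -0.25, adjusted p = 0.0346, edgeR). The groups did not overlap, but with the offset the log2 fold change was -0.49 with an adjusted p of 0.0747, and the call was lost without replicate 2 or 3 of either group and under library totals. COL7A1, the chain of the anchoring fibrils of skin, averaged 24.0 ± 1.21 CPM in Lv_LINC00673 and 20.8 ± 0.888 CPM in Lv_NC without overlap (0.20, adjusted p = 0.217). COL13A1, a transmembrane chain, averaged 102 ± 10.7 CPM in Lv_LINC00673 and 119.98 ± 19.0 CPM in Lv_NC (-0.24, adjusted p = 0.217), and overlaps the noncoding LOC107984242, which had 11.1 ± 0.780 CPM in Lv_LINC00673 and 6.58 ± 0.159 CPM in Lv_NC (adjusted p = 0.00818). COL17A1, the transmembrane chain of hemidesmosomes, averaged 31.2 ± 2.10 CPM in Lv_LINC00673 and 33.2 ± 2.20 CPM in Lv_NC (-0.09, adjusted p = 0.584). Both transmembrane chains overlapped between the groups. COL18A1, the source of endostatin, averaged 13.2 ± 2.43 CPM in Lv_LINC00673 and 13.8 ± 2.43 CPM in Lv_NC (-0.06, adjusted p = 0.834). Without strand its reads cannot be told apart from those of SLC19A1 where the genes overlap, and SLC19A1 had 38.1 ± 2.51 CPM in Lv_LINC00673 and 52.2 ± 3.21 CPM in Lv_NC (adjusted p = 0.0139). COL15A1 and COL28A1 had group means of at most 0.448 CPM, with adjusted p-values of 0.789 for COL15A1 and 0.708 for COL28A1.

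Summed per class, the makeup of the collagen RNA differed between the groups. The basement membrane class summed to 271 ± 14.5 FPKM in Lv_LINC00673 and 339 ± 19.8 FPKM in Lv_NC (SD, n = 3 each), without overlap. Nearly all of it was COL4A2, with 224 FPKM in Lv_LINC00673 and 281 in Lv_NC, and COL4A1, with 44.4 and 55.7. The class value thus restates the drop of those genes, whereas COL4A3 and COL4A5 had higher mean FPKM in Lv_LINC00673. As a share of all collagen FPKM it was 43.8 ± 0.470% in Lv_LINC00673 and 51.5 ± 0.275% in Lv_NC. The basement membrane class was the largest in both groups, with a smaller share in every Lv_LINC00673 library. Fibrillar chains made up 15.9 ± 0.521% in Lv_LINC00673 and 12.4 ± 0.476% in Lv_NC, and FACIT chains 4.52 ± 0.279% in Lv_LINC00673 and 3.46 ± 0.148% in Lv_NC. Beaded filament chains made up 27.1 ± 1.01% in Lv_LINC00673 and 24.5 ± 0.523% in Lv_NC. Shares add up to a fixed total, so a smaller share of the large basement membrane class raises the others, and no test was made on them.

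FPKM is scaled to library depth and not by TMM factors, and scaling by library totals alone raised the median log2 fold change of all genes by 0.17. Scaling was not the only difference between the units. It cancels in a ratio between genes, yet the COL6A3 to COL6A1 log2 ratio difference was 0.78 in FPKM and 0.69 in CPM. What else set the units apart was not tested. In summed FPKM the fibrillar class had 102, 96.7 and 97.0 in Lv_LINC00673, against 75.5, 87.2 and 82.3 in Lv_NC. The FACIT class had 27.9, 28.2 and 27.7 FPKM in Lv_LINC00673, against 22.2, 22.2 and 23.8 FPKM in Lv_NC. Both classes were higher in every Lv_LINC00673 library in FPKM, but in CPM the fibrillar groups overlapped and the FACIT groups did not. Within the FACIT class COL12A1 averaged 6.09 FPKM in Lv_LINC00673 and 2.35 in Lv_NC, and COL16A1 averaged 13.2 and 10.8. In CPM the COL16A1 mean was not higher, 60.8 in Lv_LINC00673 and 63.5 in Lv_NC. The means of COL22A1, COL9A2 and COL19A1 were lower in both units, so the summed FACIT rise was not shared by all its chains. The network class averaged 8.17 ± 0.833 FPKM in Lv_LINC00673 and 6.78 ± 0.472 FPKM in Lv_NC, and also overlapped in CPM. The beaded filament class averaged 168 ± 14.7 FPKM in Lv_LINC00673 and 162 ± 10.4 FPKM in Lv_NC and overlapped. All collagen chains together summed to 619.8 ± 34.3 FPKM in Lv_LINC00673 and 658 ± 35.0 FPKM in Lv_NC with overlap, and to 3417 ± 255 CPM in Lv_LINC00673 and 4059 ± 264 CPM in Lv_NC without overlap.

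**Figure D4:**
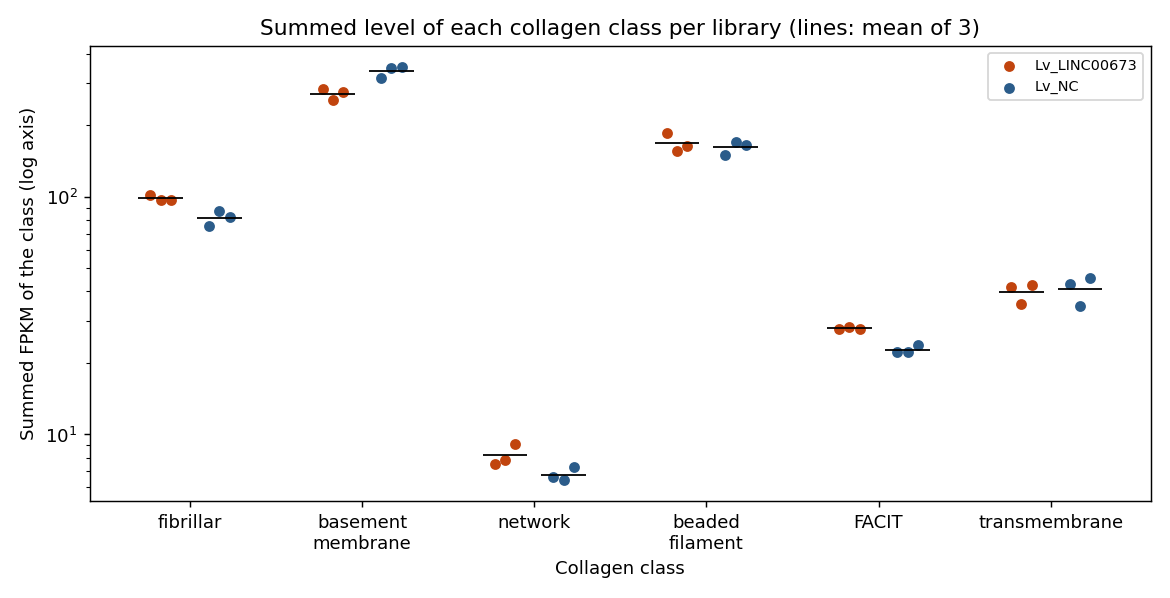
Summed deposited FPKM, not scaled by TMM factors, of 6 collagen classes per library on a log axis, with lines at the mean of 3 libraries and Lv_LINC00673 left of Lv_NC. The basement membrane class is lower and the fibrillar and FACIT classes are higher in all 3 Lv_LINC00673 libraries, and the beaded filament and transmembrane classes overlap; in CPM the fibrillar and network groups overlap too.

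Collagen transcripts are long and rich in G and C, which bears on the comparison in these libraries. The median longest transcript of the 26 chains with at least 1 CPM was 6488.5 bases with 59.6% G or C, against 3600.0 bases and 49.0% over 13626 tested genes at that level. Over all those genes the Spearman correlation of the log2 fold change was -0.49 with GC content and 0.40 with length, and over the 26 chains it was -0.22 and 0.55. These are correlations across genes of the same libraries, which are not independent replicates. COL12A1, at 11723 bases and 46.3% G or C, lies between the GC bins of all genes whose median log2 fold changes were 0.18 and -0.03. COL20A1, at 8097 bases and 61.6%, lies near the bin with a median of -0.24. COL4A1 and COL4A2, at 55.4% and 62.0%, lie near bins with medians of -0.25 and -0.24. These bins take no account of length. With the offset for both GC content and length, the log2 fold change was 0.72 for COL12A1, 1.59 for COL20A1 and -0.50 for COL4A1 and COL4A2 each. The offset fit used the 16894 genes with GC content and length, and on those genes without the offset 11 chains passed, COL5A1 (adjusted p = 0.0426) beside the 10 named above. With the offset, 12 of 35 chains passed, or 34.3% against 32.6% of all genes, 6 higher and 6 lower, against 16.5% of all genes higher and 16.1% lower. Against the same genes without the offset, COL26A1 and COL5A1 were lost, and COL4A4, COL5A3 and COL19A1 were gained, all 3 lower in Lv_LINC00673.

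**Figure D5:**
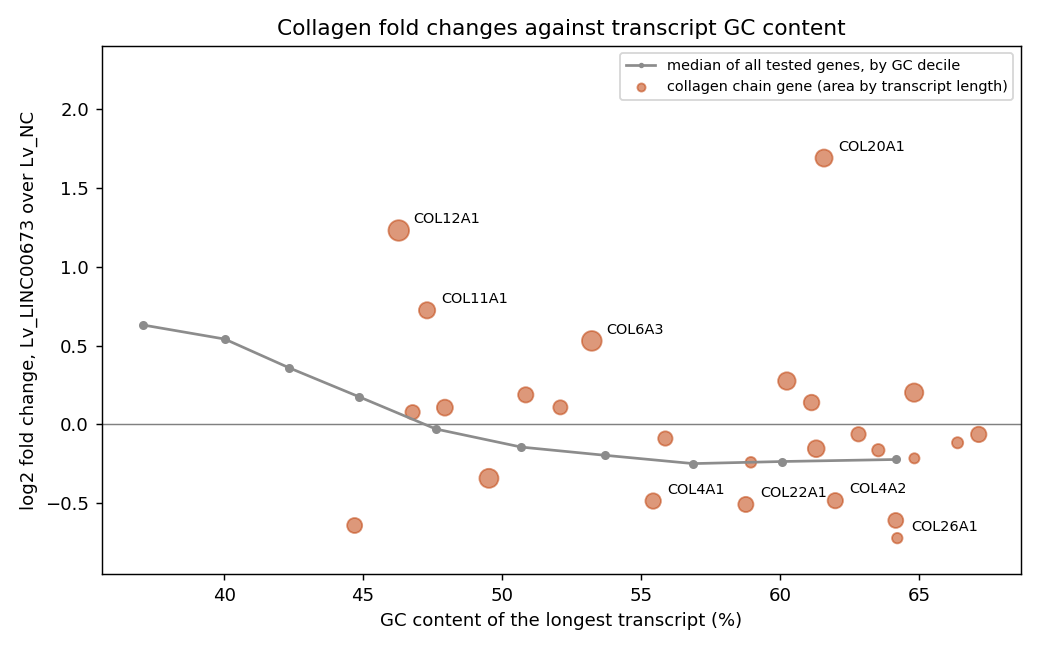
Log2 fold change of Lv_LINC00673 over Lv_NC against GC content of the longest transcript, for the 26 collagen chains with at least 1 CPM (point area by transcript length) and as the median of all tested genes per GC decile (line). COL12A1, COL11A1, COL6A3 and COL20A1 lie above the line, and COL4A1, COL4A2, COL22A1 and COL26A1 lie below it.

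Collagen chains depend on enzymes, chaperones and export factors, and these genes split in direction. Of 37 maturation genes, all tested, 5 were higher and 8 lower in Lv_LINC00673, or 35.1% called against 26.8% of all genes, and their median log2 fold change was -0.09. The number higher was 2 without Lv_NC replicate 3, and the number lower was 3 without Lv_LINC00673 replicate 2 or Lv_NC replicate 2, 4 without Lv_LINC00673 replicate 3 and 2 without Lv_NC replicate 3. PLOD2, which hydroxylates lysines used in crosslinks, averaged 77.7 ± 20.5 CPM in Lv_LINC00673 and 35.2 ± 7.51 CPM in Lv_NC (1.14, adjusted p = 0.0087, edgeR), with a log2 fold change of 0.59 with the offset (adjusted p = 0.00176). P4HA1, a catalytic subunit of prolyl hydroxylase, averaged 81.6 ± 14.9 CPM in Lv_LINC00673 and 39.7 ± 10.9 CPM in Lv_NC (1.04, adjusted p = 0.0109). P4HB, its partner subunit, averaged 1332 ± 118 CPM in Lv_LINC00673 and 1407 ± 47.5 CPM in Lv_NC and did not pass (-0.08, adjusted p = 0.531), although with the offset it did (0.23, adjusted p = 0.00271). The 2 subunit genes thus did not share a call without the offset.

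MIA3, which loads collagen into transport carriers, rose with a log2 fold change of 1.08 (adjusted p = 0.0115, edgeR), and ADAMTS3, a procollagen protease, with 1.03 (adjusted p = 0.019). MIA3 averaged 11.7 ± 2.01 CPM in Lv_LINC00673 and 5.53 ± 1.51 CPM in Lv_NC, and ADAMTS3 averaged 6.41 ± 1.24 CPM in Lv_LINC00673 and 3.15 ± 0.879 CPM in Lv_NC. Both calls were lost without Lv_NC replicate 3, and that of ADAMTS3 also without Lv_LINC00673 replicate 2. With the offset the log2 fold changes were smaller, 0.46 for MIA3 (adjusted p = 0.042) and 0.56 for ADAMTS3 (adjusted p = 0.0404). PCOLCE2, an enhancer of procollagen cleavage, fell to 20.1 ± 1.26 CPM in Lv_LINC00673, against 29.2 ± 0.987 CPM in Lv_NC (-0.54, adjusted p = 0.0106), or -0.29 with the offset (adjusted p = 0.0262). P3H4, part of a lysyl hydroxylation complex, fell to 43.3 ± 3.59 CPM in Lv_LINC00673, against 59.4 ± 1.05 CPM in Lv_NC (-0.46, adjusted p = 0.012). SERPINH1, the collagen chaperone HSP47, fell to 302 ± 26.1 CPM in Lv_LINC00673, against 373 ± 25.4 CPM in Lv_NC (-0.30, adjusted p = 0.0444), a call lost without replicate 2 or 3 of either group. With the offset neither P3H4 (adjusted p = 0.0948) nor SERPINH1 (adjusted p = 0.243) passed. In that fit the list counted 11 higher and 5 lower, or 43.2% against 32.6% of all genes, and its median log2 fold change turned to 0.12.

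Of 11 collagen receptor genes 9 were tested, and 4 were higher and 0 lower in Lv_LINC00673, or 44.4% called against 26.8% of all genes, with a median log2 fold change of 0.68. At an unadjusted p under 0.05, 5 of 9 receptor genes passed, against 39.8% of all tested genes, and without Lv_LINC00673 replicate 2 or Lv_NC replicate 3 the adjusted count was 2. ITGA2, the alpha subunit of a collagen-binding integrin, averaged 56.7 ± 14.3 CPM in Lv_LINC00673 and 20.6 ± 6.85 CPM in Lv_NC (1.46, adjusted p = 0.00776, edgeR). ITGA1, the alpha subunit of another, averaged 3.79 ± 0.985 CPM in Lv_LINC00673 and 1.15 ± 0.266 CPM in Lv_NC (1.73, adjusted p = 0.00534). Their shared beta subunit ITGB1 averaged 217 ± 38.0 CPM in Lv_LINC00673 and 144 ± 31.2 CPM in Lv_NC (0.59, adjusted p = 0.0398), and DDR2, a receptor tyrosine kinase for fibrillar collagen, averaged 18.3 ± 2.21 CPM in Lv_LINC00673 and 11.4 ± 1.17 CPM in Lv_NC (0.69, adjusted p = 0.0128). All 4 genes rose without the offset, the ITGB1 call being lost without replicate 2 or 3 of either group and the DDR2 call without Lv_LINC00673 replicate 2 or Lv_NC replicate 3. With it ITGA1 (0.90, adjusted p = 0.0081) and ITGA2 (0.81, adjusted p = 0.0036) passed, whereas ITGB1 (adjusted p = 0.0671) and DDR2 (adjusted p = 0.883) did not. The receptor list then had 22.2% called, against 32.6% of all genes, and a median log2 fold change of 0.22.

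Markers of bone-forming and other cells were measured beside the collagens. The 7 osteoblast markers summed to between 440 and 498 CPM in Lv_LINC00673 and between 555 and 594 CPM in Lv_NC, mostly from SPARC, which is itself a collagen-binding protein, and the defining markers SP7, BGLAP and IBSP did not pass the low-count filter. Among its 4 tested members 3 passed, or 75.0% against 26.8% of all tested genes, RUNX2 and ALPL higher and SPARC lower in Lv_LINC00673, but the ALPL call was lost whichever library was left out and the SPARC call in 3 of 6 such fits. The 7 epithelial markers, mostly CLDN4, summed to between 22.9 and 23.5 CPM in Lv_LINC00673 and between 17.5 and 20.7 CPM in Lv_NC, and the 5 endothelial markers to between 5.32 and 6.59 CPM in Lv_LINC00673 and between 4.02 and 4.37 CPM in Lv_NC. The 6 chondrocyte markers, mostly SOX9, summed to between 139 and 157 CPM in Lv_LINC00673 and between 148 and 171 CPM in Lv_NC. None of the tested epithelial, endothelial or chondrocyte markers passed in edgeR, and at an unadjusted p under 0.05 only 1 endothelial marker did, whereas with the offset 1 epithelial marker passed. The 5 blood markers did not exceed 0.343 CPM in sum in any library, and 2 of them were at 0 counts throughout. The part of these markers in the collagen results was not tested.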

How the data were processed

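RNA of U2OS cells was sequenced in 6 libraries, 3 labelled Lv_LINC00673 and 3 labelled Lv_NC. The authors deposited raw counts by gene and, separately, FPKM values. Per the submitters' processing notes the build was hg38; aligner, counter, annotation and strandedness were not given in the sources used here. Counts of all rows were tested with edgeR 4.0.16 in R 4.3.3 (filterByExpr, TMM factors, robust quasi-likelihood fit, two-sided, Benjamini-Hochberg adjustment over all 21933 tested genes, threshold 0.05). CPM values are scaled by TMM factors. Deposited FPKM served levels between genes, class sums and chain ratios. Intervals are 95% intervals of that fit. The script was tested on simulated data. GC content and length are those of the longest GENCODE transcript, and the offset was a spline with 4 degrees of freedom on each per library. Alternatives were DESeq2 1.42.0, limma 3.58.1, other scalings, filters, FPKM fits (log2 of FPKM plus 1 or plus 0.1), a replicate block and leaving out each library. Promoter sequences are from a RefSeq table that held 32 of the 44 genes, and gene coordinates from RefSeq (GRCh38.p14) by symbol.

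The collagen members, the classes, and the maturation, receptor and marker lists were chosen with earlier results of these data known. Every collagen chain is accounted for; from the maturation and receptor lists the text names up to 6 genes each with the largest absolute log2 fold change past the threshold, plus LINC00673, SERPINH1, P4HB and ITGB1. Markers named are those that dominate a sum or did not pass the filter, chosen after their values were seen. No replicate pair within a group agreed within sampling noise.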

Additional observations from a re-analysis of the deposited data

How the results depend on the processing

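Of the 10 collagen calls all 10 were kept under RLE size factors, upper-quartile factors and limma-voom, and 9 under DESeq2, which gave COL10A1 no adjusted p. Some fits also gained calls. DESeq2 gained COL4A4, lower in Lv_LINC00673, and limma-voom gained COL5A1, higher. Library totals gained COL1A1, COL5A1 and COL7A1, all higher. Limma on log2(FPKM + 1) without the low-value filter gained COL5A1, COL5A2, COL7A1 and COL16A1, all higher. The other limma fits on FPKM and a stricter low-count filter gained COL5A1, also higher. Libraries share replicate numbers, but same-numbered libraries did not deviate together (correlations -0.42, -0.36 and 0.04), so the numbers were not taken as pairs. With the replicate block the calls were 2 higher (COL12A1 and COL20A1) and 0 lower among collagens, 0 and 0 among maturation genes, 2 higher among receptors, and 1208 among all genes. With the offset and the block, 9 collagens, 4 lower maturation genes, 2 higher receptor genes and 3832 genes passed. With the offset alone, 11 maturation genes were higher and 5 lower, and 2 receptor genes were higher. Library totals gave 8 higher and 3 lower maturation genes, and upper-quartile factors 5 lower. Limma on log2(FPKM + 0.1) gave 1 lower collagen, 0 lower maturation genes and 3537 calls in all. Limma on log2(FPKM + 1) gave 2 lower maturation genes, and without the low-value filter 2 higher and 2 lower and 3189 calls. LINC00673 passed in DESeq2 (-0.44). The class sums in CPM, compared after the data had been seen, had log2 ratios of 0.14 (fibrillar), -0.48 (basement membrane), 0.10 (network), -0.065 (beaded filament), 0.22 (FACIT) and -0.25 (all collagens). The causes were not tested.

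Leaving out each library in turn gave 3 to 5 higher and 2 to 5 lower collagens, 2 to 6 higher and 2 to 11 lower maturation genes, 2 to 5 higher receptor genes, and 2716 to 6490 calls in all; the lowest counts came without Lv_LINC00673 replicate 2 or 3 or Lv_NC replicate 3, and without Lv_NC replicate 2 there were 3631 calls in all. The COL4A1 to COL4A2 log2 ratio difference was -0.0039 in FPKM, 0.00014 in CPM, and -0.078 to 0.048 in FPKM without each library.

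Chains that did not pass changed sign in places. With the offset, log2 fold changes were -0.13 for COL5A2, -0.14 for COL8A1, 0.048 for COL6A2, 0.018 for COL9A2 and 0.0056 for COL13A1, and with the block added -0.13, -0.15, 0.048, 0.033 and 0.022 in the same order. Library totals gave 0.012 for COL27A1, 0.031 for COL4A6, 0.00071 for COL6A1, 0.047 for COL6A2, 0.10 for COL16A1, 0.10 for COL18A1 and 0.076 for COL17A1. Limma on FPKM gave 0.038 for COL6A2 in each form, and for pseudocounts 0.1 and 1 it gave 0.28 and 0.26 for COL16A1, 0.078 and 0.054 for COL18A1, and 0.071 and 0.061 for COL17A1. Without each library in turn the range was -0.28 to 0.30 for COL3A1, -0.72 to 0.25 for COL4A6, -0.013 to 0.12 for COL8A1, -0.41 to 1.18 for COL9A3, -0.73 to 0.44 for COL15A1, -0.24 to 0.014 for COL18A1 and -0.022 to 1.07 for COL28A1. COL9A3, COL15A1 and COL28A1 had under 110 counts per group, against 636 in Lv_LINC00673 and 658 in Lv_NC for COL3A1; the part of depth in these sign changes was not tested.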
